A study of Mus musculus with 3 samples.

Results

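The genes described here are 31 genes of cholesterol and fatty acid synthesis, chosen by gene symbol, out of 36808 rows in each of 2 deposited tables and 32186 gene symbols kept after filtering. They are 16 enzymes that make cholesterol, 6 regulators or carriers of sterol, and 9 enzymes that make, elongate or desaturate fatty acids. Messenger RNA of mouse cells was profiled in 3 states. These were undifferentiated embryonic stem (ES) cells of genotype Wildtype at day 0, control embryoid bodies (EBs), the floating clusters that ES cells form as they differentiate, of genotype Wildtype at day 4 (called nontarget in the second table), and EBs of genotype Brachyury knockdown at day 4. Brachyury is a transcription factor of the mesoderm and is encoded by the gene T. All 3 libraries came from the cell line D3, with (C3H/HeH x 101/H)F1 given as its strain of origin. Each group was 1 library, so differences have no replicate check and no test was run. EBs were taken whole, and fewer cells of a type and less RNA per cell cannot be told apart. How the knockdown was made is not stated in the labels.

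Cells build cholesterol from acetyl-CoA through mevalonate, isoprenoid diphosphates and squalene, and fatty acids from the same acetyl-CoA through malonyl-CoA. Many genes of both branches are known targets of the SREBP transcription factors, encoded by Srebf1 and Srebf2. The escort protein SCAP carries these from the endoplasmic reticulum to the Golgi apparatus for activation, and the INSIG proteins hold them back when sterol is plentiful. SREBP factors are known to act together with NF-Y, which binds CCAAT boxes, and with SP1, which binds GC boxes.

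Values are FPKM, fragments scaled to transcript length and to the fragments mapped in the library, so levels of different genes can be set side by side within a library. Between libraries they also depend on the scaling, and values under other scalings are given with each comparison. A gene is called higher or lower where log2(FPKM + 1) differed by at least 1, which is 2-fold on that scale. The first table holds ES cells and control EBs and the second holds control EBs and knockdown EBs, so the control library was quantified in both. Its values were within 1% of each other in the 2 tables for 23 of the 30 members above 0, and over 5% apart for 3, Scap (11.7 and 9.84 FPKM), Tm7sf2 (20.8 and 19.3 FPKM) and Srebf1 (20.2 and 21.3 FPKM). The authors' p is an unadjusted p for 1 library against another, and the 95% intervals of ratios given here were derived from it and cover those libraries alone. The number of reads per library is unknown. T was at 0.297 FPKM in ES cells, 254 FPKM in control EBs and 2.47 FPKM in knockdown EBs, in the direction of the knockdown label.

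Of the 31 members 30 were above 0 in every library, between 4.73 and 144 FPKM. Hmgcs1, which encodes the cytosolic HMG-CoA synthase, was present as 2 rows on unplaced scaffolds of the mm9 build. Both were listed at 0 in every column, and the level of this gene is not known here. In ES cells the most abundant members were Acly at 144 FPKM, Fasn at 65.9 FPKM and Scap at 59.5 FPKM. In control EBs they were Scd2 at 86.8 FPKM, Fdps at 85.3 FPKM and Acly at 65.7 FPKM in the first table, so a sterol enzyme stood among the leading 3 there and none did in ES cells. In knockdown EBs they were Scd2 at 114 FPKM, Acly at 106 FPKM and Fdps at 84.9 FPKM. The median of the 30 members was 18.4 FPKM in ES cells, 31.3 FPKM in control EBs in either table and 39.2 FPKM in knockdown EBs.

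**Figure D1:**
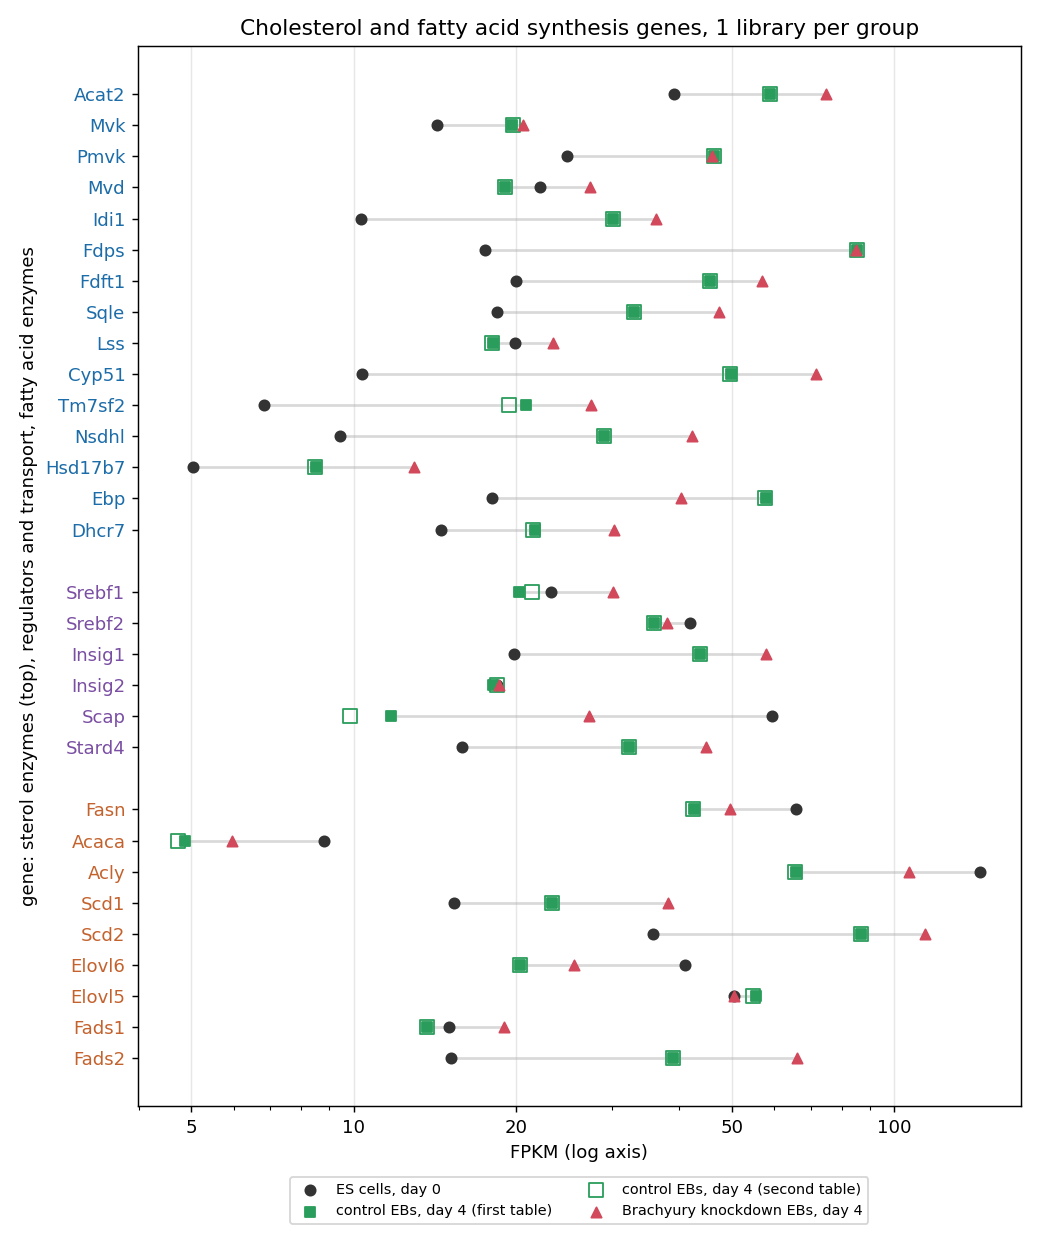
FPKM (log axis) of the 30 members above 0 in each library, with circles for ES cells, squares for control EBs (filled for the first table, open for the second) and triangles for Brachyury knockdown EBs. In FPKM as deposited, 19 of these members were lowest in ES cells and 20 were highest in knockdown EBs. Acly, Fasn, Acaca, Elovl6, Scap and Srebf2 were highest in ES cells. Summed over all symbols, FPKM was 563709 in ES cells and 751086 in knockdown EBs, which were quantified separately. Ranks of members with close levels therefore depend on the scaling, and ranks under other scalings were not computed.

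The promoters of 4 members called in the first comparison are shown, so that the motifs of sterol genes can be seen beside those of a fatty acid gene. Each is the 250 bases before the RefSeq transcription start on GRCm38.p6, read 5′ to 3′ on the strand of the gene. Capitals mark CCAAT boxes (CCAAT) and GC boxes (GGGCGG), searched on both strands, and a match on the opposite strand appears as ATTGG or CCGCCC. The first 3 belong to members higher in control EBs, Cyp51 (chr5:4104698-4104947, minus strand), Ebp (chrX:8193513-8193762, minus strand) and Insig1 (chr5:28071162-28071411, plus strand), and the last to a member that was lower, Acly (chr11:100528001-100528250, minus strand).
Cyp51: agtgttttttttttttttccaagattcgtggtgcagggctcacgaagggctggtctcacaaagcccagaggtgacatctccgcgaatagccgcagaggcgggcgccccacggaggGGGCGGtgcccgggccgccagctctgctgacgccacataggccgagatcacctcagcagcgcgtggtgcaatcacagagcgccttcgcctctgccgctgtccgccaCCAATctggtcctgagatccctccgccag
Ebp: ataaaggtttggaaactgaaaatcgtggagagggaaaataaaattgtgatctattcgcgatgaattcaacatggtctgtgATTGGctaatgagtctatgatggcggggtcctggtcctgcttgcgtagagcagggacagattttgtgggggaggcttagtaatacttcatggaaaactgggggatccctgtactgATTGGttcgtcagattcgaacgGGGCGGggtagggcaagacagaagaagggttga
Insig1: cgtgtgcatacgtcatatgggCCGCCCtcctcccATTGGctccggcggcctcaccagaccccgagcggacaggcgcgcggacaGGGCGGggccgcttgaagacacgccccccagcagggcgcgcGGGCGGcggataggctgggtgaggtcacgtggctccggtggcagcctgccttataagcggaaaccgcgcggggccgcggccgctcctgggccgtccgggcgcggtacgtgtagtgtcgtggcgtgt
Acly: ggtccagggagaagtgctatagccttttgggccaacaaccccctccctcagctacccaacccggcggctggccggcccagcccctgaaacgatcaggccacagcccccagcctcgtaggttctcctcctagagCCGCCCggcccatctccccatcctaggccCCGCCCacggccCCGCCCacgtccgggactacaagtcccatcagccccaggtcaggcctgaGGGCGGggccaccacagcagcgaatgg

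RefSeq promoters on GRCm38.p6 were matched for 24 of the 31 members. A gene was counted where the window of any of its listed starts held the motif. Pmvk, Dhcr7, Srebf1, Insig2 and Scap had more than 1 start, whereas each fatty acid enzyme had 1. Counted in this way, a CCAAT box was present in 12 of 13 sterol enzymes, 4 of 5 sterol regulators and carriers, and 2 of 6 fatty acid enzymes. In windows of the same length it was present in 41.0% of 8428 genes compared between ES cells and control EBs, and in 37.5% of all 27025 genes with a promoter. A GC box was present in 12 of 13, 5 of 5 and 2 of 6 of the same member groups, in 65.6% of the genes compared and in 35.4% of all genes. Counted by gene, both motifs were thus present in a larger share of the sterol genes than of the fatty acid genes of the list. Genes with several starts had more windows in which to hold a match. No CCAAT box overlapped a GC box in a member. The CCAAT box was in 6 of 7 members called higher in control EBs and in 12 of 17 others, and the GC box in 7 of 7 and 12 of 17. The others include Hmgcs1, which holds both motifs but was not compared, as its level is not known. A form of the sterol response element (TCACNCCAC) was in 1 member, Hmgcs1, in 1.31% of the genes compared and in 1.22% of all genes. An E-box (CACGTG) was in 5 of the 24 members, in 10.1% of the genes compared and in 6.86% of all genes. In the windows printed here, Cyp51 and Insig1 hold 1 CCAAT box each and Ebp holds 2, beside 1 GC box in Cyp51 and in Ebp and 3 in Insig1. Acly holds 4 GC boxes and no CCAAT box. Other fatty acid genes differ from it, as Fasn holds 3 CCAAT boxes and Elovl5 holds 2. Fads2, called higher in control EBs, holds 1 GC box and no CCAAT box. These matches are letters in a window and were not measured as binding sites.

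The first comparison asked how these genes differed between ES cells and control EBs after 4 days of differentiation. Among the sterol enzymes some were called higher in control EBs and none lower, whereas fatty acid enzymes and regulators had calls in both directions. Of the 30 members compared 10 were called higher and 2 lower, where 15.8% of 13914 genes were called higher and 19.5% lower. FPKM summed to 1.37 times as much in control EBs as in ES cells. Scaling each library to the same sum moved the median log2 difference of all genes from −0.10 to −0.52. With that scaling 6 members were higher and 5 lower, where 1533 of the 13914 genes were higher and 4510 lower. Of 15 sterol enzymes compared 7 were higher and 0 lower, which became 6 and 0 with that scaling. Their differences lay above 0 for 13 of 15 with or without scaling, and those of 46.1% of all genes did so without it. A log2 difference of at least 0.25 was seen in 18 of 30 members and in 36.9% of all genes. The median log2 difference was 0.88 for sterol enzymes against −0.10 for all genes, and their FPKM summed to 251 in ES cells and 544 in control EBs.

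Of the early steps, up to isopentenyl diphosphate, the genes with values here, Acat2, Mvk, Pmvk and Mvd, stayed under 2-fold. The level of Hmgcs1 is not known, and not every early step has a member in the list. Acat2, the cytosolic thiolase that joins acetyl-CoA units, was at 39.2 FPKM in ES cells and 59.0 FPKM in control EBs. The mevalonate kinase gene Mvk was at 14.3 and 19.7 FPKM, and the phosphomevalonate kinase gene Pmvk at 24.9 and 46.4 FPKM. None of these was called, although the authors' deposited table gave p = 0.0119 for Pmvk and p = 0.0471 for Acat2. Mvd, whose product decarboxylates mevalonate diphosphate, was at 22.1 and 19.1 FPKM, 1 of the 2 sterol enzymes with a lower value in control EBs.

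The genes of the steps from isopentenyl diphosphate to squalene, Idi1, Fdps and Fdft1, were called higher, Fdft1 not with the libraries scaled to the same sum (log2 difference 0.72). Idi1, the isomerase that makes dimethylallyl diphosphate, was at 10.3 FPKM in ES cells and 30.2 FPKM in control EBs, a ratio of 2.93 (95% interval 1.45 to 5.95). Fdps, the farnesyl diphosphate synthase gene (ENSMUSG00000059743, mm9 chromosome 3 from 88897514 to 88905881), was at 17.5 and 85.3 FPKM. Its ratio of 4.88 (95% interval 2.92 to 8.17) was the highest of the 30 members, at a locus shared with a short RNA row, with p = 1.58e-09 in the authors' deposited table. Fdft1, the squalene synthase gene, was at 19.97 and 45.5 FPKM, a ratio of 2.28. The tables give Fdft1 a locus shared with the cathepsin gene Ctsb, which was at 15.0 and 25.4 FPKM, and how reads were divided between them is not known here.

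From squalene onwards the genes differed among themselves. Sqle, the squalene epoxidase gene, was at 18.4 FPKM in ES cells and 33.0 FPKM in control EBs. Lss, which closes the sterol rings and lies at a locus of 2 rows, was at 19.8 and 18.1 FPKM. Neither was called. Cyp51, the lanosterol demethylase gene (ENSMUSG00000001467, mm9 chromosome 5 from 4081145 to 4104746), was at 10.4 and 49.97 FPKM, 4.82 times as high (95% interval 2.44 to 9.52; p = 5.76e-06 in the authors' deposited table). Ebp, a sterol isomerase gene on the X chromosome, was at 18.05 and 57.8 FPKM, and Nsdhl, an X-linked gene of the complex that removes methyl groups from sterols, at 9.44 and 29.1 FPKM. Tm7sf2, a sterol reductase gene in a locus of 4 genes, was at 6.83 and 20.8 FPKM, while Zfpl1 of the same locus was at 24.2 and 14.3 FPKM. The ratios of Ebp, Nsdhl and Tm7sf2 were close together, at 3.20, 3.08 and 3.05, and each was called higher. Hsd17b7, a sterol ketoreductase gene, was at 5.04 and 8.53 FPKM, and Dhcr7, the reductase gene of a last step, at 14.5 and 21.7 FPKM. The interval of the Hsd17b7 ratio was 0.555 to 5.15 and that of Dhcr7 0.761 to 2.92, so neither direction is resolved between these libraries.

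Among the regulators, Insig1 and Insig2 took different courses. Insig1, itself a known SREBP target (ENSMUSG00000045294, mm9 chromosome 5 from 28397952 to 28405201), was at 19.8 FPKM in ES cells and 43.7 FPKM in control EBs and was called higher, though not with the libraries scaled to the same sum (log2 difference 0.67). Insig2 was at 18.4 and 18.1 FPKM. The level of Insig1 was 1.07 times that of Insig2 in ES cells and 2.42 times in control EBs. Stard4, which carries cholesterol between membranes, was at 15.9 and 32.3 FPKM, a log2 difference of 0.98 just under the size called. The factor genes themselves stayed close, Srebf2, at a locus of 2 rows, at 42.0 and 35.9 FPKM and Srebf1, in a locus of 3 genes, at 23.2 and 20.2 FPKM. Rai1, a neighbour of Srebf1, was at 5.99 and 18.6 FPKM, and how reads were divided at that locus is not known here.

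Scap differed most in the other direction. It was at 59.5 FPKM in ES cells and 11.7 FPKM in control EBs (ENSMUSG00000032485, mm9 chromosome 9 from 110235792 to 110287450). It was 5.08 times as high in ES cells (95% interval 2.71 to 9.53; p = 3.99e-07 in the authors' deposited table). Its locus is shared with 1 other gene, and its control value differed by 15.9% between the tables.

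Of the 9 fatty acid genes 5 had lower values in control EBs and 4 had higher values. The lower ones were Acly, Elovl6, Fasn, Acaca and, by little, Fads1. Acly, which makes cytosolic acetyl-CoA from citrate (ENSMUSG00000020917, mm9 chromosome 11 from 100337667 to 100389314), was at 144 FPKM in ES cells and 65.7 FPKM in control EBs. It was 2.20 times as high in ES cells (95% interval 1.63 to 2.96) and was the 1 fatty acid enzyme of 9 called lower. The elongase gene Elovl6 was at 41.0 and 20.3 FPKM, a log2 difference of −0.98 just short of a call, and the fatty acid synthase gene Fasn at 65.9 and 42.5 FPKM. Acaca, an acetyl-CoA carboxylase gene in a locus of 3 genes, was at 8.81 and 4.87 FPKM. With p = 0.308 in the authors' deposited table its direction is not resolved between these libraries. With each library scaled to the same sum these 3 were also called lower, at log2 differences of −1.44, −1.07 and −1.19.

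Desaturase genes differed among themselves. Scd2, a stearoyl-CoA desaturase gene (ENSMUSG00000025203, mm9 chromosome 19 from 44368166 to 44381354), was at 35.8 FPKM in ES cells and 86.8 FPKM in control EBs. Fads2, whose product begins polyunsaturated fatty acid synthesis (ENSMUSG00000024665, mm9 chromosome 19 from 10138654 to 10175993), was at 15.1 and 38.9 FPKM. Both were called higher, with ratios of 2.43 and 2.57, but not with the libraries scaled to the same sum (log2 differences 0.81 and 0.88). Scd1 was at 15.3 and 23.3 FPKM, the desaturase gene Fads1 at 15.0 and 13.7 FPKM, and the elongase gene Elovl5 at 50.5 and 55.5 FPKM, and none of these was called. Scd2 was the more abundant of the pair of Scd genes in every library, at 2.34 times Scd1 in ES cells and 3.73 times in control EBs. The median of the 9 fatty acid genes was −0.12, near that of all genes.

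The authors' p was under 0.05 for 14 members higher and 4 lower in control EBs, Scap, Acly, Elovl6 and Fasn being the lower ones. Over all genes with 1 row, the shares were 17.6% and 19.5%. By that rule 10 of 15 sterol enzymes were higher and 0 lower.

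**Figure D2:**
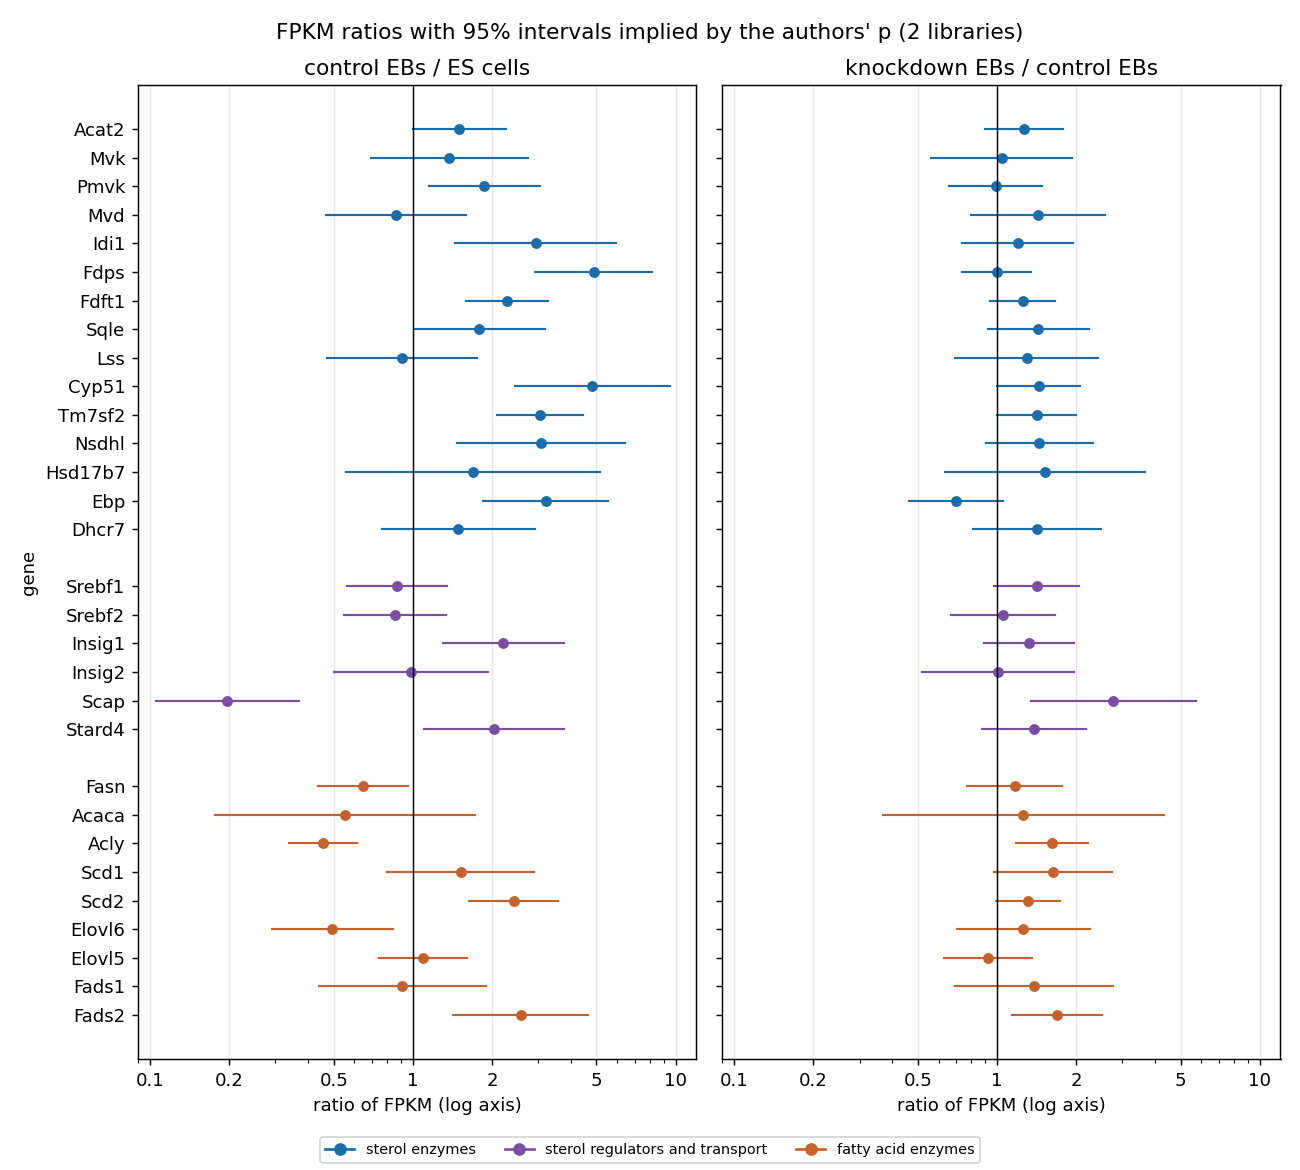
Ratio of FPKM (log axis) in control EBs over ES cells (left) and in knockdown EBs over control EBs (right) for the 30 members above 0, coloured by branch. Bars are 95% intervals implied by the authors' p and do not include the spread between cultures; on the left the ratios run from 0.197 (Scap) to 4.88 (Fdps), and on the right from 0.698 (Ebp) to 2.77 (Scap).

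The second comparison asked how the same genes differed when Brachyury was knocked down. The differences were small and mostly in one direction, with higher values in knockdown EBs in each branch. Of the 30 members 1, Scap, was called higher and 0 were called lower, where 5.31% of 13760 genes were called higher and 2.53% lower. A difference above 0 was seen in 26 of 30 members and in 57.6% of all genes, and a log2 difference of at least 0.25 in 22 of 30 members and in 27.9% of all genes. The median log2 difference was 0.36 for sterol enzymes, 0.43 for regulators and carriers and 0.39 for fatty acid enzymes, against 0.06 for all genes. With the libraries scaled to the same sum 28 of 30 members and 63.9% of all genes lay above 0, and centred on the median ratio 25 of 30 and 51.2%. The 2 comparisons share the control library, so their values are given side by side and not related to each other.

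Among the sterol enzymes 12 of 15 lay above 0. Cyp51 was at 49.7 FPKM in control EBs and 71.7 FPKM in knockdown EBs, a ratio of 1.44 (95% interval 1.001 to 2.08; p = 0.0494 in the authors' deposited table). Nsdhl was at 29.1 and 42.2 FPKM, Sqle at 33.0 and 47.4 FPKM, and Dhcr7 at 21.4 and 30.4 FPKM. The ratios of these 3 were 1.45, 1.44 and 1.42, and the interval of each reached below 1. Acat2 was at 59.0 and 74.8 FPKM, Fdft1 at 45.5 and 57.0 FPKM, and Idi1 at 30.2 and 36.2 FPKM. Mvd (19.1 and 27.3 FPKM), Lss (18.1 and 23.4 FPKM), Tm7sf2 (19.3 and 27.4 FPKM) and Hsd17b7 (8.49 and 12.9 FPKM) also had higher values, and Mvk (19.7 and 20.6 FPKM) was nearly level. No sterol enzyme reached the size called.

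The sterol enzymes that did not share this direction were Fdps, Pmvk and Ebp. Fdps was at 85.3 FPKM in control EBs and 84.9 FPKM in knockdown EBs, and Pmvk at 46.5 and 45.9 FPKM. These were level, and both lay above 0 with the libraries scaled to the same sum. Ebp was at 57.7 and 40.2 FPKM, 1.43 times as high in control EBs (95% interval 0.952 to 2.16; p = 0.0850 in the authors' deposited table). It had the lowest ratio of the 30 members, on the same X chromosome as Nsdhl, whose value was higher in knockdown EBs.

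Scap was at 9.84 FPKM in control EBs and 27.3 FPKM in knockdown EBs, a ratio of 2.77 (95% interval 1.34 to 5.71; p = 0.00580 in the authors' deposited table). This level lay between the control value and the 59.5 FPKM of ES cells. The other regulators were within 2-fold. Insig1 was at 43.7 and 57.8 FPKM, Stard4 at 32.4 and 44.8 FPKM and Srebf1 at 21.3 and 30.2 FPKM. Srebf2 was at 35.9 and 37.9 FPKM and Insig2 at 18.4 and 18.6 FPKM. The ratios were 1.42 for Srebf1 and 1.32 for Insig1, beside 1.06 for Srebf2 and 1.01 for Insig2. The 95% interval of each reached below 1, with lower ends of 0.976, 0.893, 0.669 and 0.517 in that order. None of these directions is resolved between these libraries, and a difference within either pair was not tested. Rai1, a neighbour of Srebf1, went the other way, at 18.5 and 14.3 FPKM. Insig1 stood at 2.37 times Insig2 in control EBs and 3.11 times in knockdown EBs, and Srebf2 at 1.68 and 1.26 times Srebf1.

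Among the fatty acid enzymes Acly, Fads2 and Scd1 had the highest ratios. Acly was at 65.6 FPKM in control EBs and 106 FPKM in knockdown EBs, a ratio of 1.62 (95% interval 1.19 to 2.22; p = 0.00249 in the authors' deposited table). Fads2 was at 38.9 and 66.0 FPKM, a ratio of 1.69 (95% interval 1.14 to 2.52; p = 0.00902 in the authors' deposited table), and Scd1 at 23.3 and 38.1 FPKM, a ratio of 1.64 (95% interval 0.977 to 2.74). Against ES cells these 3 stood differently, since the knockdown value of Acly lay between the other libraries while Fads2 and Scd1 were highest in knockdown EBs. Scd2 was at 86.8 and 114 FPKM, Fads1 at 13.7 and 18.9 FPKM and Elovl6 at 20.3 and 25.6 FPKM. Fasn was at 42.5 and 49.7 FPKM and Acaca at 4.73 and 5.96 FPKM. Elovl5, at 54.8 and 50.5 FPKM, was the 1 fatty acid enzyme of 9 with a lower value.

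The authors' p was under 0.05 for 5 of 30 members higher in knockdown EBs, Scap, Acly, Fads2, Cyp51 and Tm7sf2, and for 0 lower, where the shares of all genes with 1 row were 6.10% and 4.66%. Scap and Tm7sf2 are among the 8 members whose deposited locus is shared with another gene. Summed FPKM was 542 in control and 642 in knockdown EBs for the sterol enzymes, 162 and 217 for the regulators and carriers, and 351 and 475 for the fatty acid enzymes. These are 1.19, 1.34 and 1.354 times as much, while the sum over all symbols was 0.965 times as much.

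**Figure D3:**
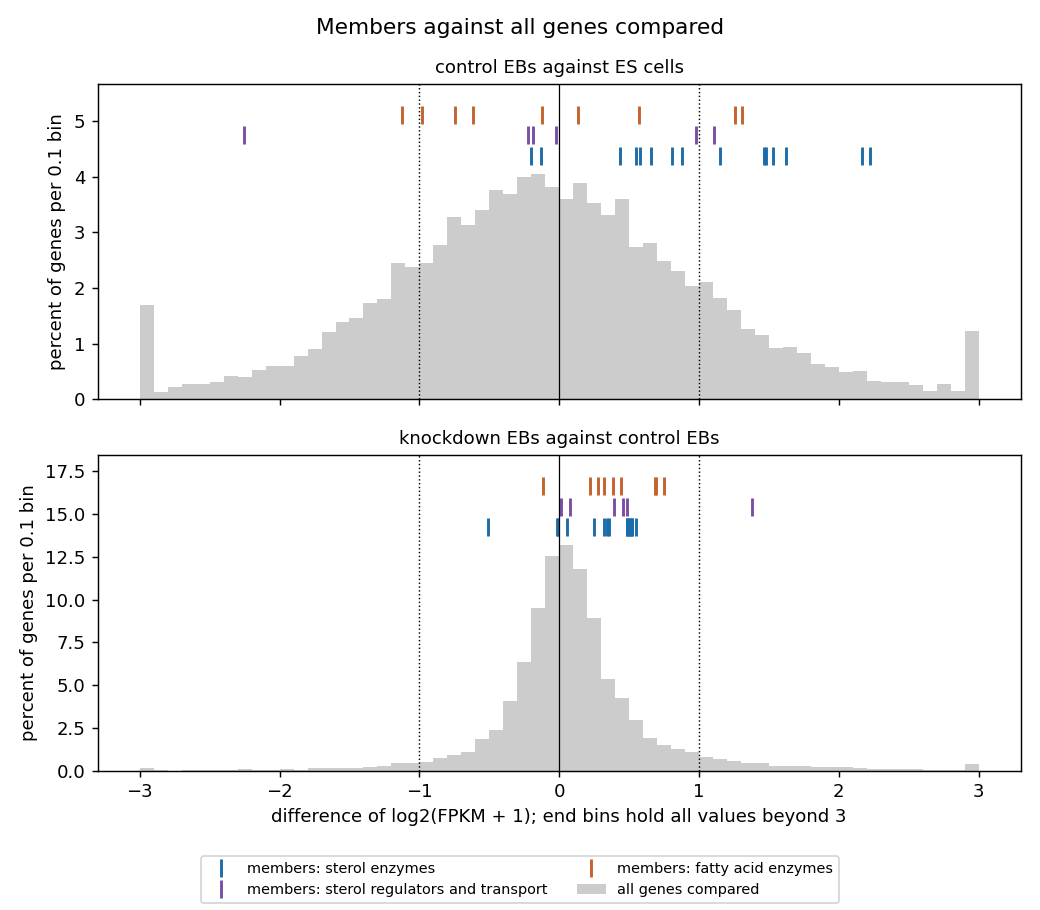
Differences of log2(FPKM + 1) for all genes compared (grey bars, percent of genes per bin of 0.1) and for the 30 members (ticks, coloured by branch), with dotted lines at the size called. In the upper panel 13 of 15 sterol enzymes lie above 0 while 9 fatty acid enzymes spread to both sides, and in the lower panel 26 of 30 members lie above 0 and Scap alone beyond 1.

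Other genes of lipid metabolism were taken from 6 lists. Over all genes compared 15.8% were called higher and 19.5% lower in control EBs, and 5.31% and 2.53% in knockdown EBs. Of 2 further sterol enzyme genes compared, 1 was higher in control EBs and 0 lower. This was Sc4mol (now named Msmo1), a sterol methyl oxidase gene, at 28.5 FPKM in ES cells, 115 FPKM in control EBs and 152 FPKM in knockdown EBs. Sc5d, a sterol desaturase gene, was at 9.32, 19.0 and 29.9 FPKM and was not called in either comparison. The branch that leads from farnesyl diphosphate to prenyl groups and ubiquinone had 0 of 8 genes called in control EBs against ES cells and 0 of 9 in knockdown against control EBs, with medians of −0.05 and −0.06. The gene compared only in the second was Fntb. Its control value was listed at 0 in the first table and at 12.95 FPKM in the second, for the same library. Of 10 genes of sterol sensing and SREBP processing 0 were higher and 1 was lower in control EBs, the ubiquitin ligase gene Syvn1, at 18.5 and 6.96 FPKM, and 0 were called in the knockdown comparison.

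Sterol storage and movement genes were mixed, beside shares of 15.8% higher and 19.5% lower over all genes in control EBs. Of 8 compared between ES cells and control EBs 2 were higher in the EBs, Npc2 (30.3 and 80.3 FPKM), which carries cholesterol out of lysosomes, and Soat1 (6.52 and 20.1 FPKM), which esterifies it. The lower 2 were Osbp (16.2 and 3.33 FPKM), a sterol transfer protein gene, and Abca1 (7.56 and 0.119 FPKM), a cholesterol efflux pump gene. In knockdown against control EBs 1 of 7 was higher and 0 lower (5.31% and 2.53% of all genes). This was the efflux transporter gene Abcg1, at 0.960 and 4.33 FPKM. The authors' deposited table gave p = 0.155 for Abca1 and p = 0.182 for Abcg1, so these low genes are not resolved between the libraries.

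Of 17 further genes of fatty acid and glycerolipid synthesis 2 were called higher and 3 lower in control EBs (15.8% and 19.5% of all genes). The higher ones were the acyl-CoA synthetase gene Acsl3 (17.5 and 60.9 FPKM) and the elongase gene Elovl1 (11.4 and 30.2 FPKM). The lower ones were Acacb (8.43 and 0.697 FPKM), the second acetyl-CoA carboxylase gene, Acsl1 (7.70 and 2.77 FPKM) and Thrsp (2.09 and 0.262 FPKM). The authors' deposited table gave p = 0.146 for Acsl1 and p = 0.317 for Thrsp, so neither is resolved between the libraries. In the knockdown comparison 2 of 15 were higher and 0 lower (5.31% and 2.53% of all genes). These were Acsl4, an acyl-CoA synthetase gene with a preference for arachidonate, at 16.7 FPKM in control and 40.4 FPKM in knockdown EBs, and Elovl4, at 1.497 and 4.06 FPKM. Acsl3 was at 60.7 and 38.4 FPKM, a lower value in the knockdown that was not called. The authors' deposited table gave p = 0.00253 for Acsl4 and p = 0.296 for Elovl4.

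Of 11 fatty acid oxidation genes 2 were higher and 3 lower in control EBs (15.8% and 19.5% of all genes), with a median of −0.67. Cpt1a, which admits long-chain fatty acids to mitochondria, was at 15.3 FPKM in ES cells and 0.738 FPKM in control EBs, and the acylcarnitine carrier gene Slc25a20 at 25.7 and 6.85 FPKM. Pdk4, at 1.97 and 0.447 FPKM, was also called lower, with p = 0.379 in the authors' deposited table, and is not resolved between the libraries. Cpt2, the partner of Cpt1a on the inner membrane, was at 8.38 and 27.9 FPKM, and the acyl-CoA dehydrogenase gene Acadl at 12.5 and 29.7 FPKM. In knockdown against control EBs 0 of 11 were called, with a median of 0.08.

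**Figure D4:**
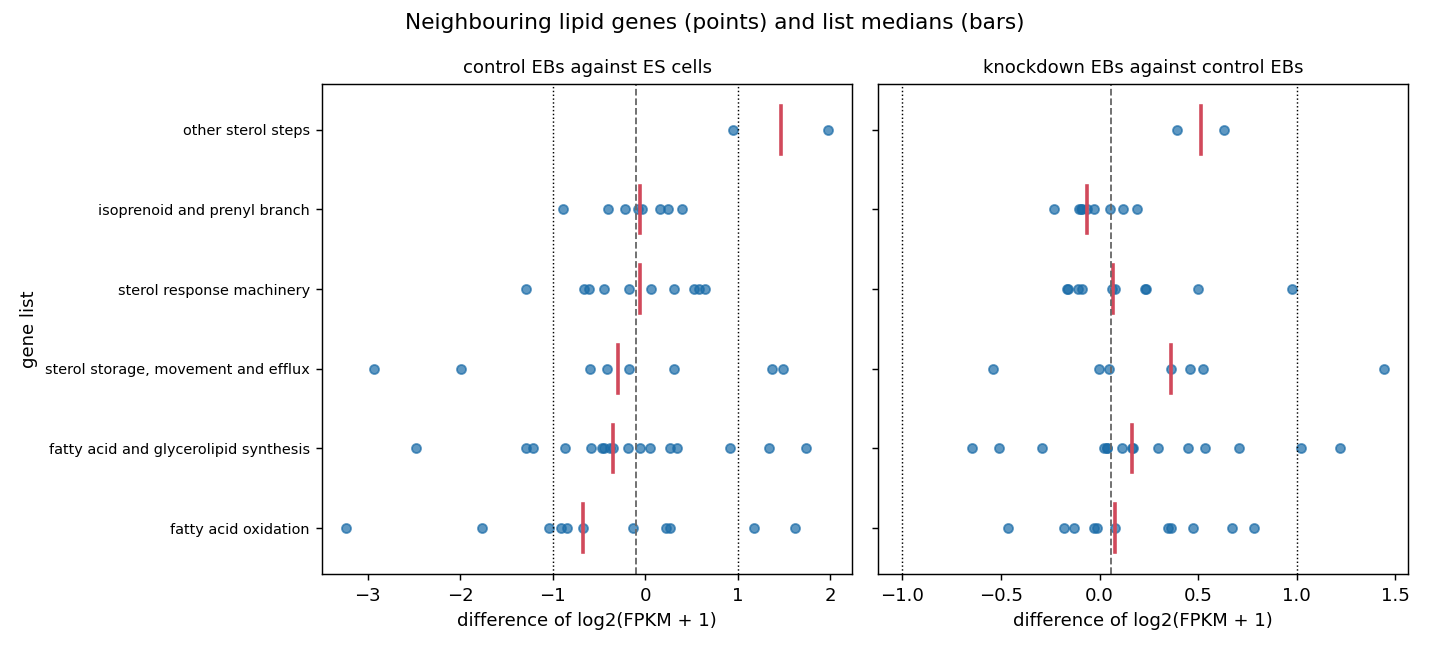
Differences of log2(FPKM + 1) for genes of the 6 other lipid lists (points), with the median of each list (solid bars), the median of all genes compared (dashed line) and the size called (dotted lines). Further sterol enzymes have the highest list median in both panels (1.47 and 0.51, over 2 genes), and fatty acid oxidation has the lowest in control EBs against ES cells (−0.67).

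Markers of the cell types that the cultures could hold differed between the groups. Over all genes compared 15.8% were called higher and 19.5% lower in control EBs, and 5.31% and 2.53% in knockdown EBs. All 6 naive ES cell markers were lower in control EBs and 4 of 6 were higher in knockdown than in control EBs. Their summed levels were 1923 FPKM in ES cells, 107 FPKM in control EBs and 404 FPKM in knockdown EBs. All 6 primitive streak markers were higher in control EBs, and 4 of 6 were lower in the knockdown, with sums of 2.83, 538 or 539 in the respective tables, and 138 FPKM, and with Gsc, Fgf8 and Wnt3 listed at 0 in ES cells. With the authors' p under 0.05, 2 naive markers were higher and 3 streak markers lower in the knockdown. By that rule the shares of all genes with 1 row were 6.10% higher and 4.66% lower. The 7 extraembryonic endoderm markers summed to 20.2, 11.2 and 35.3 FPKM. In control EBs against ES cells Ttr was called higher, and Hnf4a and Sox7 lower. In knockdown against control EBs 3 of the 4 compared were higher, Hnf4a, Gata6 and Apoa1. The authors' deposited table gave p = 0.0542, 0.0360 and 0.237 in that order, so Hnf4a and Apoa1 are not resolved between the libraries. Ttr, also compared, had a lower value in the knockdown, at 1.68 and 1.02 FPKM. Apob (0.910 and 0.167 FPKM) and Sox7 (0.232 and 0.166 FPKM) were too low to be compared and also had lower values. Afp was listed at 0 in ES cells and in knockdown EBs. The 6 fibroblast markers summed to 3.28, 4.82 and 8.66 FPKM, most of it from Thy1, at 2.72, 3.30 and 6.45 FPKM. Fbln2 was at 0.366, 0.944 and 1.71 FPKM, and neither gene was called. Col3a1 was listed at 0 in every library, Col1a1 was at or under 0.197 FPKM, and Col1a2 and Postn were at or under 0.386 FPKM. The part of these shifts in cell type in the lipid gene values was not tested.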

How the data were processed

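The 3 libraries, 1 per group, were assigned by their titles. The day 4 EB column of the first table, which names no knockdown, was taken as the control library. Per the labels' protocols, TRIzol LS was used for extraction and an Illumina mRNA-seq kit for library preparation. The submitters' processing notes name Bowtie, Cuffdiff and mm9, without versions. Annotation, strandedness and depth are unknown here. Per the file headers, the authors deposited FPKM, the natural log of the fold change and an unadjusted p-value. The fold column matched the natural log of the ratio of both FPKM values within 5e-05.

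Short RNAs, 4477 rows in either file, were left out, 25 symbols turned into dates were looked up by gene ID, and rows of 1 symbol were summed. Names and gene types came from GENCODE M21, which held 31838 of the 36808 gene IDs. Genes at 1 FPKM or more in either library were compared on log2(FPKM + 1), which understates changes of low genes. An FPKM listed as 0 may be an estimate that failed. Intervals of 95% for ratios were computed from the authors' p by a normal approximation on the log scale. Starts of loci were shifted by 1 to count from 1. All 31 members are described, and of each other list up to 4 called genes with the greatest difference. Acsl1, Pdk4, Sc5d, Ctsb, Zfpl1, Rai1 and the knockdown value of Acsl3 were added after values were seen. From the other lists 1 gene is not reported here. Members and lists were chosen with earlier results of these data known. The scripts that make the calls were tested on simulated data. The alternatives tried changed the pseudocount (0.1, 0.5), the floor (none, 5 FPKM), the scaling (same sum, median ratio), the handling of repeated symbols, the size called (3-fold) and the rule (the authors' p). Python 3.11.15, pandas 2.3.3, numpy 2.4.6 and scipy 1.17.1 were used.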

Additional observations from a re-analysis of the deposited data

How the results depend on the processing

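In control EBs against ES cells the 10 members higher and 2 lower became 6 and 5 with each library scaled to the same sum, and 3 and 1 under a 3-fold rule. The authors' unadjusted p gave 4 lower. Without genes at shared loci, a setting added after seeing the data, 1 was lower. In knockdown against control EBs the 1 member higher became 0 under the 3-fold rule, 5 by the authors' p and 0 without shared loci, which removes Scap. The other settings kept these counts within 1.5 times. The median of the regulators and carriers in control EBs against ES cells, −0.11, became 0.0016 when centred on the median ratio and 0.98 without shared loci, and that of the fatty acid enzymes, −0.12, became 0.0035 without shared loci. Single members changed sign only under scaling: Elovl5 (−0.32 after scaling to the same sum) and Insig2 (0.084 after centring) in the first comparison, and Fdps, Pmvk and Insig2 in the second.

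Over all genes, the 2202 higher and 2716 lower of the first comparison became 981 and 1188 under the 3-fold rule and 1418 and 1718 without shared loci, and scaling to the same sum gave 4510 lower. The 730 higher and 348 lower of the second became 1164 and 539 with a pseudocount of 0.1, 400 and 229 with a floor of 5 FPKM, 295 and 123 under the 3-fold rule and 473 and 220 without shared loci, and the authors' p gave 638 lower. The cause of these changes was not tested. No paired analysis was possible because each group was 1 library, and for the same reason no replicate was left out. Read depth is unknown, and the low members Acaca and Hsd17b7 have the widest intervals.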

Other observations

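Paralogs outside the lists, chosen after their values were seen, were measured in the same libraries. Scd3 was at 1.39 FPKM in ES cells, 1.65 FPKM in control EBs and 3.02 FPKM in knockdown EBs, and Scd4 at 0.184, 0.224 and 0.634 FPKM, far under Scd1 and Scd2. Fads3 was at 0.219, 0.408 and 1.18 FPKM. Acat3, a gene next to Acat2 on chromosome 17 with a similar sequence and a locus shared by several genes, was at 10.6, 21.6 and 31.02 FPKM, and how reads were divided between Acat2 and Acat3 is not known here. The mitochondrial thiolase gene Acat1 was at 9.71, 13.6 and 12.7 FPKM. Ebpl, a homolog of Ebp, was at 5.36, 11.7 and 10.4 FPKM.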
